A study of Mus musculus with 6 samples.

Results

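The 10 genes described here encode the transcription factors and cofactors that set the red cell programme: Gata1, Zfpm1, Gfi1b, Tal1, Lmo2, Ldb1, Klf1, Klf3, Nfe2 and Bcl11a. They were chosen by name, as the rows of the deposited tables that carry these symbols, and all 10 were present among the 17463 genes listed and among the 11277 genes that passed the filter on low counts. mRNA was sequenced from C57BL/6J mouse fetal liver erythroblasts. TER119-negative cells, which do not yet carry this erythroid surface antigen, were cultured in medium with erythropoietin for 30 h. The 3 cholesterol samples had 40 µM cholesterol in the medium and the 3 control samples did not. Per the study's methods TER119+ cells were then sorted for RNA, and the controls received vehicle, while the labels call them untreated. Samples carry replicate numbers 1 to 3 in both groups. The labels do not say what a number stands for, nor whether the samples came from separate animals or cultures, so p-values measure only the spread between these samples, which may be technical.

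GATA1 is the zinc finger factor on which red cell differentiation depends. On chromatin it meets the helix-loop-helix factor TAL1 through the bridging proteins LMO2 and LDB1, and LDB1 molecules bind each other and bring enhancers and promoters together. FOG-1, the product of Zfpm1, binds the GATA1 zinc finger, and GFI1B is a repressor that recruits the LSD1 demethylase. KLF1 binds CACCC boxes and activates adult beta-globin, KLF3 is a related repressor of such sites, the NF-E2 p45 subunit (Nfe2) pairs with small Maf proteins at globin enhancers, and BCL11A represses the embryonic and fetal globin genes. The comparison asked whether the transcripts of these factors, of the proteins they work with and of the genes they act on differed when the medium held cholesterol. The study itself sequenced these samples to learn how cholesterol acts on erythroblast proliferation.

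The promoters of these genes were searched, where a window was available, for letters that the factors themselves read. Windows of 5 genes are shown because these genes gave the results below: Gata1, which passed no test, Klf3, Ldb1 and Klf1, which differed most clearly between replicate numbers, and Bcl11a, which like Ldb1 was higher with cholesterol in every pair. Each window, from RefSeq on GRCm38.p6, runs 5′ to 3′ on the gene's strand from 250 bases before the annotated start to 50 after it. Capitals mark GATA words (AGATAA and its variant ending in G, AGATAG, with the corresponding words that begin with T, TGATAA and also TGATAG) and CACCC words (CCNCNCCC), read on both strands. The windows are chrX:7967861-7968160 on the minus strand for Gata1, chr8:84901732-84902031 on the plus strand for Klf1, chr5:64803271-64803570 on the plus strand for Klf3, chr19:46037021-46037320 on the minus strand for Ldb1 (the most downstream of its 3 annotated starts) and chr11:24080445-24080744 on the plus strand for Bcl11a.
Gata1: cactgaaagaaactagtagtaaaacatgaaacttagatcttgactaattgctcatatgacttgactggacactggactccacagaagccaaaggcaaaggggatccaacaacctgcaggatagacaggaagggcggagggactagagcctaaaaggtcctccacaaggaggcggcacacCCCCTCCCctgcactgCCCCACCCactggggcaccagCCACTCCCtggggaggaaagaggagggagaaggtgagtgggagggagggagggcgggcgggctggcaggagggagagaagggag
Klf1: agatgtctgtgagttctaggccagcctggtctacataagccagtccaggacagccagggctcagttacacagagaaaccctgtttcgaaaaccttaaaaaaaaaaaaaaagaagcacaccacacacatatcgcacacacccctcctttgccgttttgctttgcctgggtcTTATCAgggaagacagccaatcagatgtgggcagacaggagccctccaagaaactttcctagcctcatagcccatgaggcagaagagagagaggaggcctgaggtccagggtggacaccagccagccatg
Klf3: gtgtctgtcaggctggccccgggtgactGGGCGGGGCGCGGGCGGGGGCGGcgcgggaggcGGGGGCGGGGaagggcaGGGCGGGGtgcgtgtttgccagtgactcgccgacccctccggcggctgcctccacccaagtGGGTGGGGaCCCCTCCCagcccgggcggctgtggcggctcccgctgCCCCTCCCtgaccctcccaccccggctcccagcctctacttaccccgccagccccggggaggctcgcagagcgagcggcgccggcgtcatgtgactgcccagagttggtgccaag
Ldb1: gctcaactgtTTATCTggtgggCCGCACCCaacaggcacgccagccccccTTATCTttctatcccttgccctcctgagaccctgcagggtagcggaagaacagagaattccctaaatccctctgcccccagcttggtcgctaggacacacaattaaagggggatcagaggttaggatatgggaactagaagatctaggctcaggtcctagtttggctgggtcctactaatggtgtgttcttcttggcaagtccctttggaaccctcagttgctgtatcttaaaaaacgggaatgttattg
Bcl11a: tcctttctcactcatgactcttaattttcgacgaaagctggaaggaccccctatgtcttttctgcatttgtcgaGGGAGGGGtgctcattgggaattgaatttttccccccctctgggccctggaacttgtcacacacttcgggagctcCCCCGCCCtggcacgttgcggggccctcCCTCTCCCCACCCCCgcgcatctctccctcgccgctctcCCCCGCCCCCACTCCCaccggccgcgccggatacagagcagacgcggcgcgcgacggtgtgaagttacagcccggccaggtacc

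Windows were found for 8 of the 10 genes, 11 windows in all, and not for Nfe2 and Lmo2. GATA words lay in 4 of the 11 windows, each of a different gene (Klf1, Tal1, Ldb1 and Gfi1b), where 29.6% of 32544 mouse promoter windows hold such a word. The Klf1 word began 80 bases before the start, and the Ldb1 window above holds 2 GATA words, beginning 240 and 200 bases before the start, with a CACCC word between them. The windows at the other annotated starts of Ldb1 held CACCC words and no GATA word. CACCC words lay in 9 of the 11 windows, at 7 of the 8 genes, all but Klf1, against 49.7% of all windows. In the GC-rich Klf3 window, with 10 CACCC words, and in the Bcl11a window, with 8, several of these words overlap each other. E-boxes (CANNTG), the words of the TAL1 family, lay in 7 of the 11 windows, against 72.3% of all windows. Neither the NF-E2 core (TGAGTCA, 5.19% of all windows) nor a sterol regulatory element (TCACNCCAC, 1.24%) was found in the windows of these 8 genes. Such matches are letters in a window and do not show binding.

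Sequencing depth was close between samples, with 19826849 to 20061724 estimated counts per sample, so that 3 counts, taken as the floor of detection, stand for 0.15 CPM, counts scaled to the library total. CPM values of single genes were scaled by the TMM method, and the summed marker levels are CPM of the library total without that scaling. The adult globin genes took 12.5% to 17.9% of the counts. The 11 erythroid markers in the tables were all detected in every sample. Their sum was 164799, 158373 and 201243 CPM in control replicates 1, 2 and 3. In the cholesterol replicates it was lower, at 143290, 149130 and 183891 CPM, and 1 of the 11 markers had a higher mean with cholesterol. Abcg1, a cholesterol-responsive export pump, was at 5.89 ± 1.35 CPM (SD, n = 3) in controls and 97.8 ± 3.54 CPM with cholesterol, and was the 1 gene that passed edgeR's quasi-likelihood test (adjusted p = 0.00292, Benjamini-Hochberg over all genes tested, in each of the tests that follow). Srebf2, which encodes SREBP2, lay between 289 and 418 CPM in controls and between 129.8 and 156 CPM with cholesterol, without overlap (adjusted p = 0.534). The summed neutrophil markers were lower with cholesterol and differed by replicate number, at 71.6, 274 and 702 CPM in control replicates 1, 2 and 3 and at 45.01, 118 and 299 CPM in the cholesterol replicates, and 10 of 10 of these markers had a lower mean with cholesterol. The summed macrophage markers ran in the same order, at 18.6, 43.8 and 127 CPM against 14.6, 20.8 and 61.5 CPM. All 10 neutrophil markers and 6 of 10 macrophage markers had over 3 counts in every sample, and the part of such cells in the results below was not tested.

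Taken with condition alone in the model, none of the 10 factor genes differed between cholesterol and control. By edgeR's quasi-likelihood test 0 of 10 passed an adjusted p of 0.05 and 0 of 10 had an unadjusted p under 0.05, and DESeq2 called 0 of 10. Over all 11277 genes this test called 0.00887% higher and 0% lower, and before adjustment 81 genes lay under 0.05 in the higher and 216 in the lower direction. Means were higher with cholesterol for 5 of the factor genes and lower for 5. Their fitted log2 fold changes ran from -0.15 (Nfe2) to 0.20 (Ldb1), with a median size of 0.08. This size was 0.09 over all genes tested. It was 0.06 over the 1882 genes with a mean of at least 100 CPM, as all 10 factor genes have. Same-numbered samples of the 2 groups deviated together (correlations of 0.73, 0.35 and 0.82 for replicates 1, 2 and 3), so the numbers were also fitted as a block. With this replicate block 3 of 10 factor genes passed, Ldb1 and Bcl11a higher and Nfe2 lower, where the same model called 1.65% of all genes higher and 5.2% lower. A single gene compared 3 against 3 without pairing cannot fall below 0.1 in an exact permutation test, and within 3 pairs the limit is higher.

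**Figure D1:**
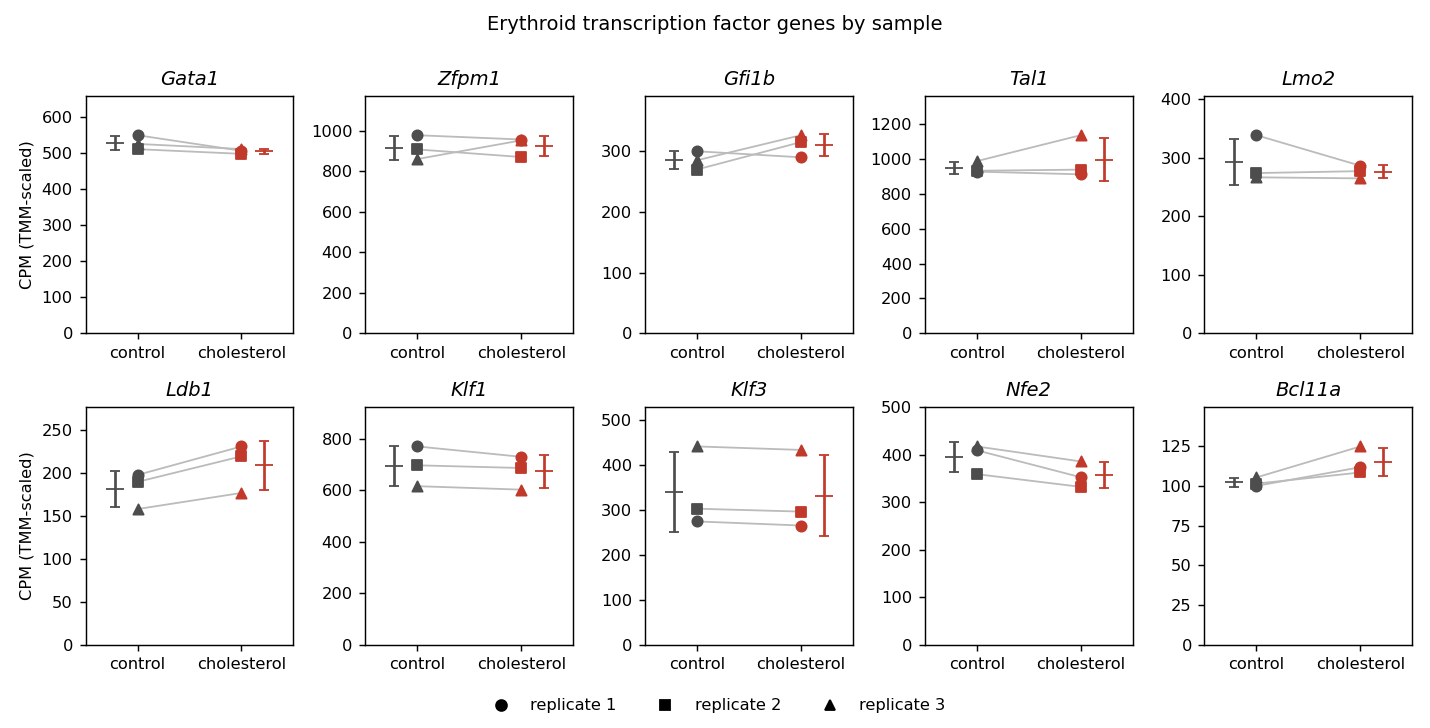
TMM-scaled CPM of each factor gene in control (grey) and cholesterol (red) samples, with marker shapes for the replicate number, grey lines joining same-numbered samples, and horizontal ticks with bars for the mean ± SD of 3 samples. Bcl11a is the gene whose groups do not overlap, the lines of Ldb1 all go up and those of Nfe2 all go down, and replicate 3 of Klf3 stands at 442 and 434 CPM above the other samples.

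Gata1 (chrX:7959260-7976663 on GRCm38.p6, as are the gene positions that follow) was at 550.4, 512 and 526 CPM in control replicates 1, 2 and 3 and at 507, 499 and 512 CPM in cholesterol replicates 1, 2 and 3. The groups overlapped near 512 CPM and all 3 pairs were lower with cholesterol. The group means were 529 ± 19.6 and 506 ± 6.75 CPM (SD, n = 3). The log2 fold change was -0.07 (95% interval -0.20 to 0.07), and Gata1 did not pass with the replicate block either (adjusted p = 0.406, edgeR). Its partner Zfpm1 (chr8:122281856-122337862) was at 977, 907 and 859.6 CPM in controls and 956, 869.7 and 952 CPM with cholesterol. The groups overlapped, replicates 1 and 2 were lower and replicate 3 higher with cholesterol, and the log2 fold change was 0.02 (-0.17 to 0.20). Gfi1b (chr2:28609450-28621982) stood at 300.0, 269.9 and 285 CPM in controls and 290.0, 315 and 326 CPM with cholesterol, so replicates 2 and 3 were higher with cholesterol and replicate 1 was lower. Its log2 fold change was 0.12 (-0.05 to 0.30), with an adjusted p of 0.191 in the edgeR fit with the block. Left without replicate 1, the pair that was lower, the blocked edgeR fit gave Gfi1b an adjusted p of 0.0329 and a log2 fold change of 0.21. These were 0.67 and 0.07 without replicate 2, and 0.35 and 0.09 without replicate 3. DESeq2 with the block gave Gfi1b an adjusted p of 0.509.

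The helix-loop-helix factor Tal1 (chr4:115056426-115071755) was at 927, 932 and 987 CPM in controls and at 911, 938 and 1135 CPM with cholesterol. The groups overlapped, and cholesterol replicate 3 was the highest of the 6 samples. The log2 fold change was 0.07 (-0.17 to 0.31), with an adjusted p of 0.494 in the blocked edgeR fit. Lmo2 (chr2:103957903-103981878), the bridge between TAL1 and LDB1, was at 339, 274 and 267 CPM in controls and 287, 277 and 265 CPM with cholesterol. Control replicate 1 stood above the other samples, which lay between 265 and 287 CPM. The log2 fold change was -0.09 (-0.34 to 0.17), and Lmo2 was lower with cholesterol in 2 of 3 pairs.

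Ldb1 (chr19:46031525-46048145), the subunit that joins such complexes to each other, was at 198, 189.5 and 158 CPM in control replicates 1, 2 and 3 and at 231, 219 and 177 CPM in cholesterol replicates 1, 2 and 3. The groups overlapped because cholesterol replicate 3 lay below control replicates 1 and 2, while each cholesterol sample was above the control of its own number. The means were 182 ± 21.0 and 209 ± 28.5 CPM (SD, n = 3), 15.02% apart, and the log2 fold change of 0.20 had a 95% interval of -0.12 to 0.52 with condition alone. The 3 pairs differed by 0.22, 0.21 and 0.16 on the log2 scale. With the replicate block the log2 fold change was 0.20 (0.11 to 0.29) and Ldb1 rose in edgeR's quasi-likelihood test (adjusted p = 0.00611), and DESeq2 with the same block gave an adjusted p of 0.0193. Both samples of a number left out, the blocked edgeR adjusted p of Ldb1 was 0.0669 without replicate 1, 0.0683 without replicate 2 and 0.000397 without replicate 3, and the log2 fold change lay between 0.19 and 0.22. Single libraries moved the value with condition alone further, to 0.11 without control replicate 3, 0.12 without cholesterol replicate 1 and 0.31 without cholesterol replicate 3.

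The 2 Krüppel-like factors of opposite action differed little with cholesterol. Klf1 (chr8:84901982-84905291) was at 771, 697 and 616 CPM in controls and 730.3, 687 and 603 CPM with cholesterol. The groups overlapped, each cholesterol sample lay a little under its paired control, and the log2 fold change was -0.05 (-0.31 to 0.22), with an adjusted p of 0.602 in the blocked edgeR fit. Klf3 (chr5:64803521-64832901) was at 275, 303 and 442 CPM in controls and 266, 297 and 434 CPM with cholesterol, so replicate 3 was the highest sample of both groups. The condition-alone interval of Klf3 was the widest of the 10 genes, at -0.63 to 0.57 around a log2 fold change of -0.03. The interval narrowed to -0.12 to 0.05 with the replicate block (adjusted p = 0.715, edgeR).

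Nfe2 (chr15:103248212-103258403) stood at 409, 359 and 417 CPM in controls and at 352, 332 and 386 CPM in the cholesterol samples. Cholesterol replicate 3 lay between the controls, so the groups overlapped, but Nfe2 was lower with cholesterol within all 3 pairs, by log2 differences of -0.22, -0.11 and -0.11. The means were 395 ± 31.6 and 357 ± 27.0 CPM (SD, n = 3), and the log2 fold change was -0.15, with a 95% interval of -0.36 to 0.07 with condition alone. Nfe2 fell with the replicate block, where the interval was -0.23 to -0.06 (adjusted p = 0.0373, edgeR's quasi-likelihood test). In DESeq2 with the block its adjusted p was 0.101, and in the blocked edgeR fit it was 0.310 without replicate 1, 0.118 without replicate 2 and 0.00724 without replicate 3.

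Bcl11a (chr11:24076564-24173558) was at 100.1, 101 and 105 CPM in controls and 112, 109 and 125 CPM with cholesterol, and it was the 1 factor gene of 10 whose groups did not overlap. Over all genes tested the groups did not overlap for 8%, so 1 of 10 lay near the background. The means were 102 ± 2.77 and 115 ± 8.68 CPM (SD, n = 3), 12.5% apart, with a log2 fold change of 0.17 and a 95% interval of -0.01 to 0.35 with condition alone. Bcl11a rose with the replicate block, where the interval was 0.07 to 0.27 (adjusted p = 0.0337, edgeR). This call was not made by DESeq2 with the block (adjusted p = 0.299), nor by the blocked edgeR fit without replicate 1 (0.139), 2 (0.0663) or 3 (0.151). Hbb-bh1, the embryonic beta-like globin gene that BCL11A represses, was at 96.0, 41.8 and 34.4 CPM in controls and 58.1, 28.6 and 23.9 CPM with cholesterol, and fell in the blocked edgeR fit by 0.61 on the log2 scale (adjusted p = 2.04e-06). Hbb-y, the other embryonic beta-like gene, was at 3.39, 3.02 and 2.49 CPM in controls and 3.35, 2.07 and 1.79 CPM with cholesterol and did not pass this fit (adjusted p = 0.450). Hbb-bh1 also differed among the replicate numbers (adjusted p = 1.08e-11, edgeR's joint test). Its log2 differences from replicate 1 were -1.12 for replicate 2 and -1.39 for replicate 3. The part of Bcl11a in the values of these globin genes was not tested.

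Counted over the 10 genes, 6 had the same direction in all 3 pairs, Ldb1 and Bcl11a upward and Gata1, Klf1, Nfe2 and Klf3 downward, where 40.1% of all genes tested did so in either direction. Among the 1882 genes with a mean of at least 100 CPM, a level that all 10 factor genes reach, this share was 46.3%, and 7.12% of them were called with the replicate block. The plot of fold changes in both models sets these differences side by side.

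**Figure D2:**
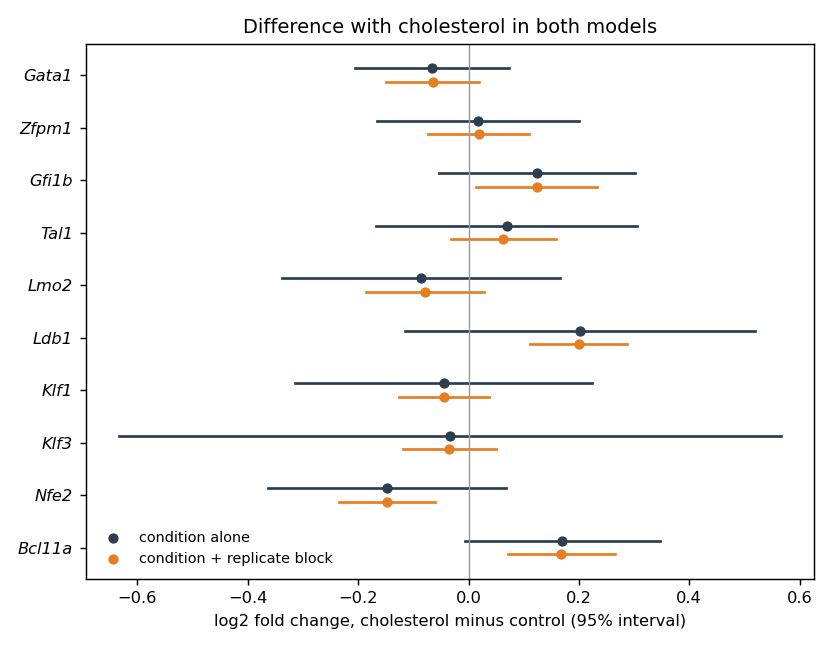
Log2 fold change of each factor gene, cholesterol minus control, with 95% intervals from edgeR's quasi-likelihood fits with condition alone (dark) and with the replicate block (orange). Every condition-alone interval includes 0, and the blocked intervals leave it out for Ldb1, Bcl11a and Nfe2, which passed after adjustment, and for Gfi1b, which did not (adjusted p = 0.191).

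Levels between genes were compared per transcript length, as deposited FPKM values over all 6 samples. Klf1 was the highest of the 10 genes, with a mean of 443 FPKM and a range of 384 to 492 FPKM. Gata1 (mean 269 FPKM, range 262 to 282), Zfpm1 (263, 236 to 279.6), Nfe2 (237, 214 to 253), Tal1 (225, 212 to 260.0), Lmo2 (181, 163 to 213) and Gfi1b (166, 153 to 179) followed, and in this stretch each gene's range overlapped that of the next in order. Klf3 (91.3, 74.8 to 117) and Ldb1 (89.9, 70.7 to 108) lay lower and overlapped each other, and Bcl11a was the lowest at 36.8 FPKM (33.3 to 43.5). The order was separated at 3 steps, since all 6 samples of Klf1 lay above those of Gata1, all of Gfi1b above those of Klf3, and all of Ldb1 above those of Bcl11a. Klf1 stood at the 99.1 percentile of all listed genes and Bcl11a at the 88.5. The transcript length implied by count and FPKM varied for Bcl11a from 2796 to 3103 bases between samples, so its FPKM also depends on how reads were shared among its isoforms.

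**Figure D3:**
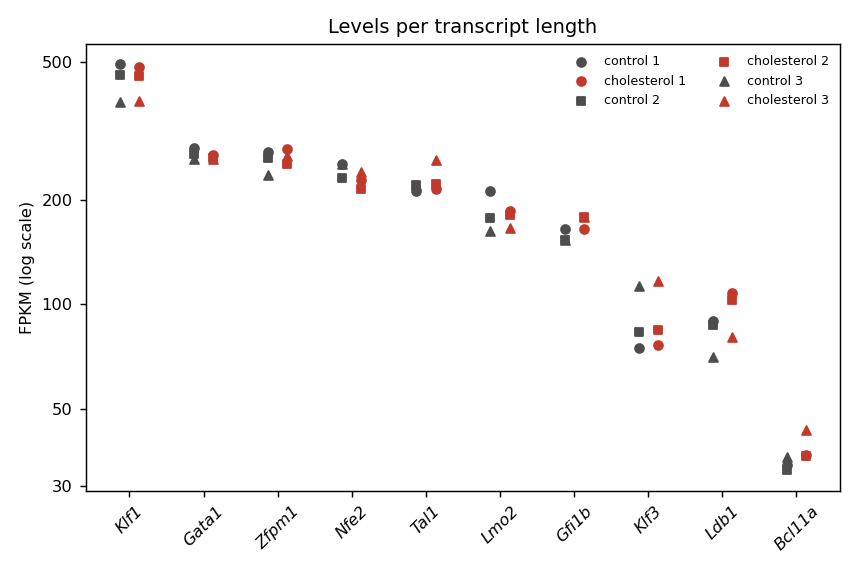
FPKM on a log scale for the 10 factor genes in order of their mean, with grey points for controls, red points for cholesterol samples and shapes for the replicate number. Klf1 stands alone at the top with 384 to 492 FPKM, Klf3 and Ldb1 share a lower level, and Bcl11a stands alone at 33.3 to 43.5 FPKM.

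Several of these genes differed more among the replicate numbers than with cholesterol, Klf3 most of all, while for Gfi1b and Bcl11a the cholesterol difference was larger than the difference between any 2 numbers, and for Gata1 it equalled the largest of these (-0.07). The contrast itself was not tested. With condition in the model, 6 of 10 factor genes differed among the 3 numbers (edgeR's quasi-likelihood test), beside 46.3% of all genes and 59.4% of those with a mean of at least 100 CPM. The median size of the log2 difference between numbers 3 and 1 was 0.16 over the 10 genes, beside 0.08 for cholesterol. Between these numbers it was 0.27 over all genes tested and 0.18 over those with a mean of at least 100 CPM. Klf3 differed most, with replicate 3 above replicate 1 by 0.70 on the log2 scale (adjusted p = 2.42e-09). Ldb1 (-0.36, adjusted p = 3.70e-05), Klf1 (-0.30, 0.000159) and Lmo2 (-0.23, 0.0122) were lower in replicate 3 than in replicate 1, and Tal1 was higher by 0.21 (0.00900). Nfe2 was lowest in replicate 2, with log2 differences from replicate 1 of -0.14 for replicate 2 and 0.08 for replicate 3 (adjusted p = 0.00534). The adjusted p-values of Klf3, Ldb1, Klf1, Lmo2, Tal1 and Nfe2 are of the joint test over the 3 numbers, not of the printed differences. Gata1 (adjusted p = 0.527), Zfpm1 (0.147), Gfi1b (0.664) and Bcl11a (0.114) did not pass. Without both replicate 3 samples, Lmo2 (adjusted p = 0.00355), Klf3 (0.00912), Nfe2 (0.0301) and Zfpm1 (0.0409) passed, and Ldb1 (0.443), Klf1 (0.0598) and Tal1 (0.703) did not. Lmo2 did not pass without both replicate 1 samples (adjusted p = 0.434) or without control replicate 1 alone (0.411), and Nfe2 did not without both replicate 2 samples (0.283) or without control replicate 2 alone (0.102). Tal1 did not pass without cholesterol replicate 1 (0.0837) or 3 (0.294), and with the number alone in the model Klf1 (0.0137) and Klf3 (0.000189) passed. Replicate 3 is also where the neutrophil and macrophage markers were highest in each group, and their part in these differences was not tested.

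**Figure D4:**
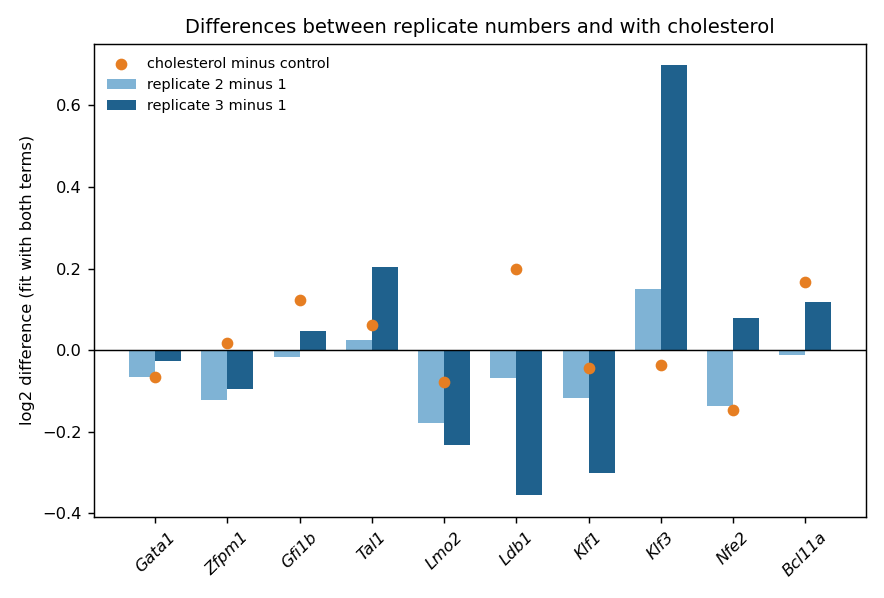
Log2 differences of replicate 2 (light bars) and replicate 3 (dark bars) from replicate 1, and of cholesterol from control (orange points), from the fit with both terms. The bar of Klf3 reaches 0.70 and that of Ldb1 -0.36, while the orange points stay between -0.15 and 0.20.

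The gene whose values over the 6 samples ran closest to a given factor gene was found by the root mean square difference of log2 CPM after centring, among 5813 genes of 20 CPM or more. For Gata1 these were Arhgef1 (0.017), Ankib1 (0.018) and Alad (0.018), and Gata1 itself varied so little (0.046 around its own mean) that a flat gene is also near. For Klf1 they were Pgam5 (0.017), Mrfap1 (0.020) and Ttll12 (0.022). For Nfe2 they were Atf4 (0.030), Mpg (0.031) and Nkiras2 (0.033). Of the genes compared, 39.9% were nearer to Klf1 than a flat gene would be, 16.7% to Nfe2 and 2.75% to Gata1. For Klf1 and Nfe2 the named genes are thus the nearest of many. Among the 10 factor genes themselves the closest pairs were Gata1 with Zfpm1 (0.067), Tal1 with Bcl11a (0.070) and Klf1 with Lmo2 (0.073), and the farthest were Ldb1 and Klf3 (0.47). These distances describe 6 samples that share numbers and conditions.

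Among partners and cofactors of the factors, Gata2 had the largest fitted difference with cholesterol. This list of 56 genes holds other GATA, KLF and helix-loop-helix factors, small Maf proteins and subunits of the corepressor and coactivator complexes, and 54 were tested (Ldb2 and Klf12 had too few counts). With condition alone edgeR called 0 of 54 genes, 2 were lower at an unadjusted p under 0.05 (Gata2 and Klf10), and DESeq2 called 1, Gata2 (adjusted p = 0.00904). The median log2 fold change was -0.01, beside 0.01 over all genes tested. The blocked fit called 0 of 54 higher and 4 lower, where it called 1.65% and 5.2% of all genes, so the count lay near the background. Gata2, the progenitor factor that GATA1 displaces, was at 6.22, 5.596 and 12.3 CPM in controls and 2.37, 2.57 and 2.76 CPM with cholesterol, without overlap, and fell by 1.59 on the log2 scale in the blocked edgeR fit (adjusted p = 6.97e-05). Lyl1, a relative of Tal1, was at 295, 239.7 and 232 CPM in controls and 250.4, 212 and 209 CPM with cholesterol and fell by 0.19 (adjusted p = 0.00830). The Krüppel-like factor Klf6 fell by 0.24 (adjusted p = 0.00916), and its relative Klf10 by 0.20 (adjusted p = 0.0377), but DESeq2 with the block called neither (adjusted p = 0.176 and 0.465). The corepressor gene Rcor1 was at 91.4 ± 7.58 CPM in controls and 101 ± 2.14 CPM with cholesterol (SD, n = 3) and did not pass either fit. Gata2 is also used by mast cells, whose summed markers were 3.14, 7.86 and 30.8 CPM in controls and 1.31, 2.52 and 5.20 CPM with cholesterol, with Fcer1a, Cma1 and Tpsb2 at or under 3 counts in every sample, and the part of such cells was not tested.

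Genes that the factors activate had slightly lower means with cholesterol in most cases. Of 38 such genes (globins, heme enzymes, membrane and skeleton proteins and others) 36 were tested, Klf8 had too few counts and Ahsp was not analysed here. With condition alone edgeR called 0 of 36, 1 was lower at an unadjusted p under 0.05 (Btg2), and DESeq2 called 0. The mean was lower with cholesterol for 28 genes and higher for 8, with a median log2 fold change of -0.07, where over all genes tested 5405 means were lower and 5872 higher and the median was 0.01. In all 3 pairs 17 were lower and 2 higher, where 2270 and 2247 of all 11277 genes were. The groups did not overlap for 4 of 36, Btg2, Epor, Fech and Alad, each lower, beside 8% of all genes in either direction. In the blocked fit 4 of 36 fell and 1 rose, beside 5.2% and 1.65% of all genes. The antiproliferative gene Btg2 was at 273, 277 and 269 CPM in controls and 250.4, 253 and 236 CPM with cholesterol, and fell by 0.15 on the log2 scale (adjusted p = 0.0354, edgeR), a call that DESeq2 with the block did not make (adjusted p = 0.139). The alpha-globin gene Hba-a2 fell by 0.26 (adjusted p = 0.000956), the beta-globin gene Hbb-bs by 0.17 (0.0223), and Alas2, the first enzyme of erythroid heme synthesis, by 0.14 (0.0382), all in the blocked edgeR fit. The sister copies Hba-a1 (adjusted p = 0.333) and Hbb-bt (0.0965) did not pass the same fit, and the counts of Hba-a2 and Hba-a1, and of Hbb-bs and Hbb-bt, are uncertain because the copies are nearly identical. The exonuclease gene Isg20 was at 50.4, 77.0 and 177 CPM in controls and 59.5, 99.0 and 195 CPM with cholesterol and rose by a log2 fold change of 0.24 (adjusted p = 0.00477). Epor, the erythropoietin receptor, at 290.3 ± 22.1 against 267 ± 4.06 CPM, and Fech, the last enzyme of heme synthesis, at 1808 ± 35.2 against 1706 ± 25.4 CPM (SD, n = 3), did not pass with the block (adjusted p = 0.129 and 0.224).

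**Figure D5:**
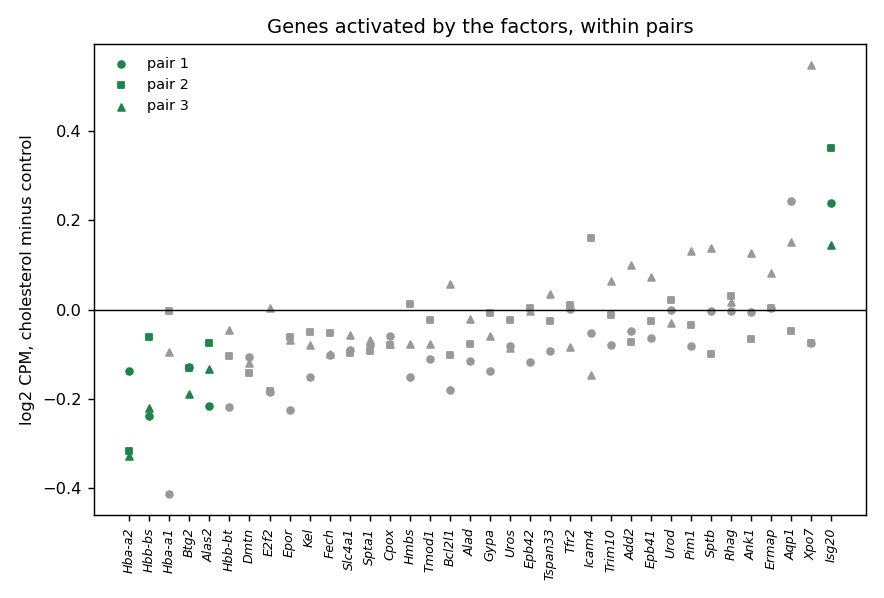
Log2 CPM of cholesterol minus control within each same-numbered pair for the 36 tested genes activated by the factors, ordered along the axis, with genes called in the fit with the replicate block in green and the others in grey. Most points lie below 0, with 17 genes lower in all 3 pairs, and Isg20 is the called gene above it.

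Of the 13 genes that the factors repress, Myc was at 54.7 to 78.1 CPM in controls and 62.6 to 82.0 CPM with cholesterol and was the 1 gene with a higher mean. Hbb-bh1 is given above, and the means of the others were at most 15.4 CPM in either group. With condition alone edgeR called 0 of 13 and 2 were lower at an unadjusted p under 0.05 (Gata2, which is also among the partners, and Kit), DESeq2 called 1 (Gata2), and the median log2 fold change was -0.77. With the replicate block 6 fell and 0 rose (edgeR), beside 5.2% and 1.65% of all genes: Gata2, the stem cell factor receptor gene Kit (from 2.96 ± 0.465 to 1.46 ± 0.479 CPM, SD, n = 3, adjusted p = 0.0255), Cd34 (0.00880), Spi1, which encodes the myeloid factor PU.1 (0.000135), Hbb-bh1 and Lgals3 (3.06e-05). DESeq2 with the block called 4 of them and not Kit (adjusted p = 0.316) or Cd34 (0.135), and gave no adjusted p for Meis1. Kit is also expressed by mast cells, and Spi1 and Lgals3 by neutrophils and macrophages, whose summed markers were lower in the cholesterol sample of each pair, and the part of such cells was not tested. In bulk RNA fewer cells of a type and less RNA per cell cannot be told apart.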

How the data were processed

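mRNA was sequenced from 3 control and 3 cholesterol-treated samples, grouped by their labels. The authors deposited estimated counts per gene (expected counts, not whole for 27.9% to 29.5% of values in a sample) and a table of normalized values. The unit of the latter was not named. The deposited values were taken as FPKM, because count, total and value together gave nearly the same length for a gene in every sample (median coefficient of variation 0.327% over 6776 genes). Per the labels, the submitters' processing notes name HISAT2 2.0.4, Bowtie2 2.2.5, RSEM 1.2.12, DESeq2 1.4.5 and GRCm38.p6, with no role or order.

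The tests had been planned for whole counts, so estimated counts were rounded, filtered by edgeR's filterByExpr (minimum count 10, minimum total 15) and tested over 11277 genes with edgeR 4.0.16 (TMM, robust quasi-likelihood test, two-sided, Benjamini-Hochberg adjustment) in R 4.3.3. The model held condition alone, since the study's methods name no block. After the group means were removed, samples with the same number correlated at 0.73, 0.35 and 0.82, each sample best with its own number, so the numbers pair the samples by these values rather than by the labels, and the block is printed where it changes a call. DESeq2 1.42.0, limma 3.58.1 on log2(FPKM + pseudocount), other scalings and filters and left-out samples were alternatives. Scripts were tested on simulated data. No 2 libraries agreed within sampling noise (lowest chi-square per degree of freedom 8.78). Depth limits precision to the floor of 3 counts, which covers counting error only.

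The 10 genes and the lists were chosen with earlier results of these data known. Every factor gene is named. Listed genes are named if called with or without the block or among the 3 smallest unadjusted p of a list, and Alad, Myc, Hbb-y, Hba-a1 and Hbb-bt were added after their values were seen.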

Additional observations from a re-analysis of the deposited data

How the results depend on the processing

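With condition alone edgeR called 1 gene and DESeq2 28, of which 26 were lower. With the replicate block 772 genes were called, 280 in DESeq2, 745 with scaling that left out the adult globin genes, and 821, 296 and 726 without replicates 1, 2 and 3. The alternatives with the block, other than the block itself, were chosen after the data had been seen. Leaving out each sample gave 1 to 8 genes, with 8 without control replicate 3 and 2 without cholesterol replicate 3. Of the 10 factor genes 0 were called with condition alone, 3 with the replicate block, 1 (Ldb1) with the block in DESeq2, 3 with globin-free scaling and the block, and 1, 0 and 2 without replicates 1, 2 and 3. For partners and cofactors the count was 0 with condition alone, 1 in DESeq2, 4 with the block, 2 with the block in DESeq2, 4 with globin-free scaling and the block, and 1, 2 and 5 without replicates 1, 2 and 3. For activated genes it was 0 with condition alone, 5 with the block, 4 with the block in DESeq2, 5 with globin-free scaling and the block, and 2, 2 and 9 without replicates 1, 2 and 3. The replicate numbers called 5220 genes, 2983 in DESeq2's likelihood ratio test, 3203 with the number alone in the model, 1658 without both replicate 3 samples and 4416 to 4927 with 1 sample left out. Of the factor genes they called 6, 2 with the number alone in the model, 4 to 6 under the other alternatives that kept all 6 samples, 5, 5 and 4 without both samples of replicate 1, 2 or 3, and 5 to 8 with 1 sample left out, with 8 without control replicate 3. Of the log2 fold changes with cholesterol, those of Gata1, Nfe2, Ldb1, Gfi1b and Bcl11a kept their direction in 19 of 19 alternatives, but with 1 sample left out Gata1 came to -0.0327 (without control replicate 1), Bcl11a to 0.110 (without cholesterol replicate 3) and Ldb1 to 0.111 (without control replicate 3) up to 0.312 (without cholesterol replicate 3). With 1 sample left out, Klf1 ran from -0.124 (without control replicate 3) to 0.0399 (without control replicate 1), Tal1 from -0.0333 (without cholesterol replicate 3) to 0.129 (without cholesterol replicate 1), Lmo2 from -0.148 (without control replicate 3) to 0.0351 (without control replicate 1), Zfpm1 from -0.0245 (without control replicate 3) to 0.0716 (without control replicate 1) and Klf3 from -0.271 (without cholesterol replicate 3) to 0.202 (without control replicate 3), so each of these 5 changed sign. With the block, Tal1 turned to -0.00893 and Zfpm1 to -0.0482 without replicate 3, and Lmo2 to 0.00637 without replicate 1. In limma on log2(FPKM + 1) Klf3 turned to 0.0297, where the median over all genes was 0.0274, beside 0.00643 in edgeR with condition alone. On log2(FPKM + 0.1) Klf3 turned to 0.0300. The cause of these changes was not tested.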

Other observations

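Ratios between factor genes, and of Gata1 to Gata2 from the partner list, were taken in the deposited FPKM values. They were chosen after the values were seen and describe how the partners stood to each other in each sample. Gata1 to Gata2, the pair that exchanges on chromatin as red cells mature, was 153, 158 and 74.5 in control replicates 1, 2 and 3 and 369, 339 and 320 in the cholesterol replicates, without overlap. Gata2 itself was at 1.84, 1.71 and 3.53 FPKM in controls and 0.73, 0.78 and 0.82 FPKM with cholesterol. Gata1 lay between 262 and 282 FPKM in all samples, so this ratio followed Gata2. The part of mast cells, which also use Gata2, was not tested. Ldb1 to Lmo2 was 0.422, 0.495 and 0.433 in controls and 0.579, 0.573 and 0.485 with cholesterol, so the groups overlapped and the ratio was higher with cholesterol within all 3 pairs. Klf3 to Klf1, a repressor and an activator of the same family, was 0.152, 0.181 and 0.295 in controls and 0.158, 0.185 and 0.303 with cholesterol, so this ratio followed the replicate number in both groups. Gata1 to Zfpm1 lay between 0.963 and 1.11 in all 6 samples and Tal1 to Lmo2 between 0.996 and 1.57.

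In CPM of the library total without TMM scaling, summed megakaryocyte markers were 94.0, 87.0 and 103 CPM in controls and 94.5, 83.8 and 84.4 CPM with cholesterol. Summed progenitor markers were 194, 229 and 246 CPM in controls and 208, 200.04 and 198 CPM with cholesterol, of which Ikzf1 alone took 161 to 196 CPM, while 7 of the 8 markers had a lower mean with cholesterol. Summed hepatocyte markers were 116, 100.1 and 271 CPM against 209.7, 69.97 and 234 CPM.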
